A study of Mus musculus with 48 samples.

Results

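The subject is the step from the end of the night to the first hours of light in the liver of wild-type mice, as read from total RNA. The members are 6 of the 48 libraries of the series, chosen by genotype, RNA fraction and zeitgeber time (ZT, hours after lights on) and not by any measured value. The early light group holds the libraries of ZT2, ZT4 and ZT6, when food had been withdrawn, and the late night group those of ZT20, ZT22 and ZT0, the end of the feeding phase. All 6 came from C57BL/6 mice of 14 weeks kept on a 12 h light, 12 h dark cycle, with food offered in the dark phase alone during the week before the livers were taken. Each library is a pool of 2 mice, and each time point has 1 library. The whole series crosses 12 times of day with wild-type and Nono-/- mice and with total and nuclear RNA of the same livers. Nono encodes a nuclear RNA-binding protein that also partners clock proteins. Against the wild-type step were set the same 2 windows in 6 libraries of Nono-/- total RNA, from mice of the same strain, age and feeding schedule, and in 6 libraries of wild-type liver nuclei.

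The liver of a mouse fed at night moves within a few hours from storing nutrients to releasing them. After a meal, insulin and absorbed sugar raise the synthesis of fatty acids, cholesterol and glycogen, while in a fast glucagon and released fatty acids favour glucose output, fat oxidation and ketone bodies. The circadian clock runs beside this cycle. Its activators BMAL1 (gene Arntl) and CLOCK bind E-boxes and drive the period and cryptochrome genes and the REV-ERB genes Nr1d1 and Nr1d2, whose products repress the clock in turn, REV-ERB through the elements that ROR factors also bind.

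The values are FPKM, fragments per kilobase of exon (or of intron), scaled to the size of the library. In total RNA, exons report chiefly on spliced transcripts. The depth of the libraries was 20.7, 22.7 and 20.3 M reads (M for mega) in early light and 11.8, 15.3 and 20.2 M reads in late night, so that late night genes of low level rest on fewer reads. Introns took 20.6% to 23.8% of the reads in early light and 19.2% to 23.8% in late night. The 7 hepatocyte markers, such as albumin, summed to 38450 to 43896 FPKM in early light and 42339 to 48336 FPKM in late night. Among 10 marker lists of liver and neighbouring cell types, 2 had sums that did not overlap between the windows. The 7 markers of sinusoidal endothelial cells summed to 97.6 to 110 FPKM in early light and 88.6 to 90.0 FPKM in late night, and the 6 lymphocyte markers to 1.76 to 2.32 FPKM in early light and 0.930 to 1.49 FPKM in late night. The 5 neutrophil markers summed to 6.45 to 63.6 FPKM in early light and 1.21 to 13.7 FPKM in late night (exact permutation p = 0.5), and the 5 erythroid markers to 48.4 to 57.9 FPKM in early light and 51.1 to 106 FPKM in late night (exact permutation p = 0.7). For the endothelial and lymphocyte sums, and for the depth, the exact 2-sided permutation test gave p = 0.1, the smallest that 3 libraries against 3 allow. The 7 Kupffer cell markers summed to 118 to 164 FPKM in early light and 81.2 to 124 FPKM in late night (exact permutation p = 0.2). The part of these measures in the results was not tested, and in bulk tissue fewer cells of a type and less RNA per cell cannot be told apart. Nono itself lay between 9.20 and 10.49 FPKM in all 6 libraries. The column names number the wild-type libraries of each RNA fraction in time order from ZT0 to ZT22, so time and number cannot be told apart. What the numbers stand for is not stated. ZT0 is numbered beside the morning libraries and far from ZT20 and ZT22 of its own window. The headers carry the word fed for ZT14 to ZT22 but not for ZT0.

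The first question was which messenger RNAs differ between early light and late night. Of 11357 genes tested with limma, 5 rose (0.0440% of the genes, Benjamini-Hochberg adjusted p under 0.05) and 0 fell (0.00%). At an unadjusted p under 0.05 there were 629 higher and 799 lower genes. A gene had to move by much more than the drift within a window to pass, because the 3 time points of a window served as its replicates and the median standard error of a log2 difference was 0.196. A simpler count was of genes whose 3 early light values, after scaling, all lay above or all lay below the 3 late night values: 1204 genes were higher without overlap (10.6%) and 1125 lower (9.91%). A daily curve of 24 h fitted to the 12 wild-type libraries, an alternative chosen after seeing the data, gave 1484 higher genes (13.1%) and 1637 lower ones (14.4%) for the same contrast. It borrows strength from the other 6 time points and assumes a smooth course through the day.

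Among the genes that rose, Gabarapl1, a member of the ubiquitin-like ATG8 family that autophagosomes carry, was the most abundant. It had 121, 134 and 167 FPKM at ZT2, ZT4 and ZT6, against 51.0, 61.9 and 67.0 FPKM at ZT20, ZT22 and ZT0. Every early light library thus lay above every late night library, by 1.25 ± 0.18 (log2 ± SE; 2.37-fold, limma adjusted p = 0.0391). Near its start it overlaps the antisense gene 1700101I11Rik, and whether reads were separated by strand is not stated. Tcp11l2, a T-complex 11-like gene, had 12.1, 16.9 and 12.8 FPKM in early light and 6.80, 4.44 and 5.14 FPKM in late night, a rise of 1.37 ± 0.19 (2.58-fold, adjusted p = 0.0318). Maff, a small MAF transcription factor that pairs with other leucine-zipper factors, had 1.19, 1.73 and 1.40 FPKM in early light, against 0.268, 0.309 and 0.364 FPKM in late night. That rise of 1.90 ± 0.25 (adjusted p = 0.0318) rested on 176 reads in early light and 29 in late night. B930025P03Rik, a non-coding RNA gene of chromosome 8, had 1.46, 0.771 and 0.914 FPKM in early light (204 reads) and 0.0280, 0.170 and 0.0800 FPKM in late night (14 reads), with a rise of 2.60 ± 0.38 (adjusted p = 0.0391). Maff and B930025P03Rik lie below the 2 FPKM set for naming a gene and were taken up after their values were seen.

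**Figure D1:**
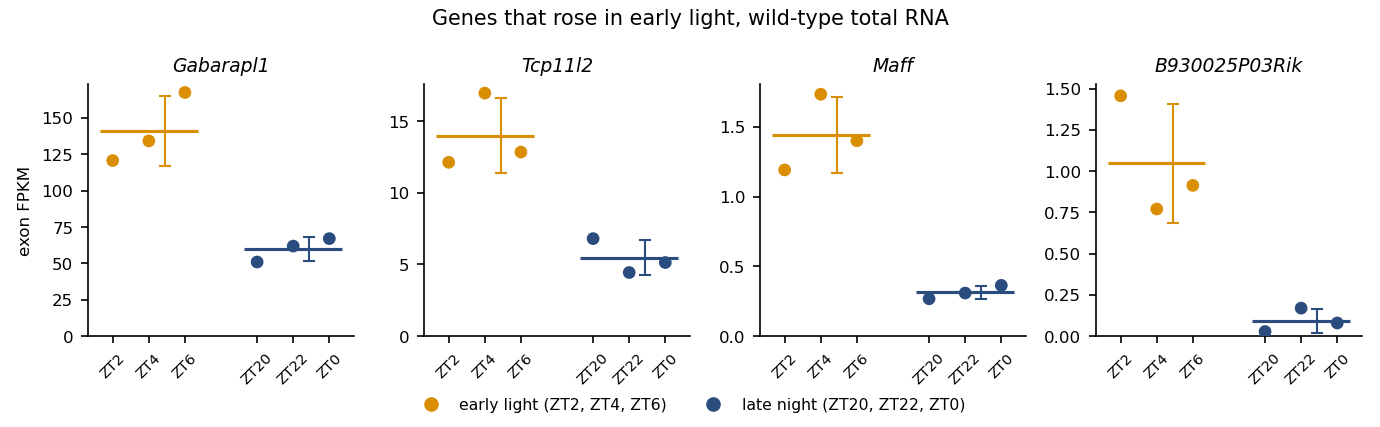
Exon FPKM (linear axis from 0) of the 4 genes with more than a few reads that rose, in each early light library (ZT2, ZT4, ZT6, left) and each late night library (ZT20, ZT22, ZT0, right) of wild-type total RNA; horizontal lines are window means and error bars SD over 3 libraries. Gabarapl1 averaged 141 ± 24.1 FPKM in early light and 59.97 ± 8.21 FPKM in late night, and the windows do not overlap in any panel.

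The gene with the smallest p, Mir3962, needs care. Its entry is 19 bases long and lies inside Ccnd1, the cyclin D1 gene, on the same strand. Its 2.54, 4.63 and 2.60 FPKM in early light stood for 1, 2 and 1 reads, against 0 reads in each late night library, and nothing in the files separates them from reads of the host gene. No fold is given, since every library is under the floor of 3 reads. Ccnd1 had 3.12, 4.31 and 6.15 FPKM in early light and 4.02, 4.47 and 3.39 FPKM in late night, which overlap. Gabarapl1 lost its call without ZT4, ZT6, ZT20 or ZT22 (adjusted p up to 0.203), Tcp11l2 without ZT4, ZT6 or ZT22, and Maff without ZT4, ZT6, ZT20 or ZT22 (up to 0.163 for both). B930025P03Rik lost it without any 1 of the 6 libraries (up to 0.163). With only the 6 libraries of these windows in the fit all 4 lost it (adjusted p = 0.0894 for Gabarapl1, 0.0898 for Maff, 0.132 for Tcp11l2 and 0.148 for B930025P03Rik). With a 10 times larger pseudocount the difference was 0.88 for Maff and 0.89 for B930025P03Rik, so the size of these low genes depends on that choice. All 4 kept their direction.

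The promoters of the 3 protein-coding genes that rose are shown because they are the sequences nearest to the call. They are RefSeq windows (GRCm38.p6, the build mm10) that span a transcription start, in lower case, with motif matches in capitals. The motifs searched on both strands were the E-box CACGTG, the ROR and REV-ERB element half-site AGGTCA (RORE), the D-box TTATGTAA, the heat shock element GAANNTTC, the cAMP response element TGACGTCA and, added after the sequences were read, the forkhead core TAAACA. No motif contains another.
Gabarapl1, chr6:129532942-129533241, plus strand: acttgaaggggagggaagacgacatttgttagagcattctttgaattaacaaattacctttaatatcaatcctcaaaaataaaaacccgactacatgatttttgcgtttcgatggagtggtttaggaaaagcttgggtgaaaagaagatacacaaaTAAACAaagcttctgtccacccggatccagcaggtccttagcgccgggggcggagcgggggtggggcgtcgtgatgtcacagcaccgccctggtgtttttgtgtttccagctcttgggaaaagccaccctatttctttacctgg
Tcp11l2, chr10:84576697-84576996, plus strand: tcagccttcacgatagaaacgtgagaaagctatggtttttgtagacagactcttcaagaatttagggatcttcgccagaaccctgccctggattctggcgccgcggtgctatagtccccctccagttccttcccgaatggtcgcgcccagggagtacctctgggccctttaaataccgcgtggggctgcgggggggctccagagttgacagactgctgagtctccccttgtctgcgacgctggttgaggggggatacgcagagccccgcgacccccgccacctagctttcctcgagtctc
Maff, chr15:79347270-79347569, plus strand: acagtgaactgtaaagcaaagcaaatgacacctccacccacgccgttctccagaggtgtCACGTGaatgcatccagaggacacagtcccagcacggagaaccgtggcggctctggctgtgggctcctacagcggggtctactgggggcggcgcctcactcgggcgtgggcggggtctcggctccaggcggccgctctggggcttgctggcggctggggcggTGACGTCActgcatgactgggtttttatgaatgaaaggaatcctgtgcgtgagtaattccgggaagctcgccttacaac
The Gabarapl1 window held 1 forkhead core and the Tcp11l2 window none of the motifs. The Maff window, 1 of 3 listed for the gene, held an E-box and, nearer the start, a cAMP response element, and the other 2 held none. The capitals are letter matches only.

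Clock genes differed on both sides, and the REV-ERB genes had the 2 highest positive differences of all listed genes. Of the 8 repressor genes, 2 were higher and 2 lower without overlap, and 0 passed the adjusted threshold in the main test. Here and for every list below, exon counts without overlap are to be read against 10.6% of all genes higher and 9.91% lower. Counts by the daily curve are to be read against 13.1% of all genes higher and 14.4% lower. Nr1d1 had 1.19, 7.52 and 5.48 FPKM at ZT2, ZT4 and ZT6, against 0.401, 0.332 and 0.413 FPKM at ZT20, ZT22 and ZT0 (log2 difference 2.99 ± 0.54, adjusted p = 0.0912). Nr1d1 overlaps Thra on the other strand. Nr1d2 had a higher value at each later morning time, with 5.47, 15.2 and 22.9 FPKM in early light and 2.96, 1.62 and 2.38 FPKM in late night (2.43 ± 0.45, adjusted p = 0.0960). In both genes ZT2 was the lowest morning library, and without it both passed (adjusted p = 0.00419 for Nr1d1 and 0.0190 for Nr1d2). Cry1, the late-phase cryptochrome, had 4.60, 2.98 and 1.51 FPKM in early light, against 14.99, 14.8 and 8.09 FPKM in late night (-2.08 ± 0.43). Per2 had 0.672, 0.689 and 1.503 FPKM in early light, against 5.27, 4.01 and 1.66 FPKM in late night (-1.75 ± 0.36). Late night values of Cry1 and Per2 were lowest at ZT0, next to the morning. Per1, Per3, Cry2 and Ciart overlapped between the windows.

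Among the activators, Arntl had 11.9, 8.54 and 1.71 FPKM in early light, against 10.2, 11.1 and 11.8 FPKM in late night. At ZT2 Arntl was thus still at its night level, and only ZT6 was far below it. Clock and Rora differed by -0.17 ± 0.24 and -0.19 ± 0.19, and Npas2 was under the filter on low values. The output factor Dbp ran the other way within the morning, with 0.433, 2.16 and 13.9 FPKM, against 1.42, 1.06 and 0.591 FPKM in late night. Tef, of the same PAR bZIP family, had 4.13, 9.59 and 21.5 FPKM in early light and 17.5, 8.70 and 6.19 FPKM in late night, so its window means hardly differed (-0.02 ± 0.48). Nfil3, which competes for D-boxes, had 20.02, 9.14 and 4.17 FPKM in early light and 15.1, 13.4 and 15.4 FPKM in late night. Fits of window means therefore miss genes that cross their night level inside the morning, and the daily curve called Arntl (limma adjusted p = 0.00107), Dbp (0.00107) and Nfil3 (0.00195). Hlf was lower after scaling (-0.79 ± 0.21), with ZT6 at 4.13 FPKM just above ZT0 at 3.73 FPKM as deposited.

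**Figure D2:**
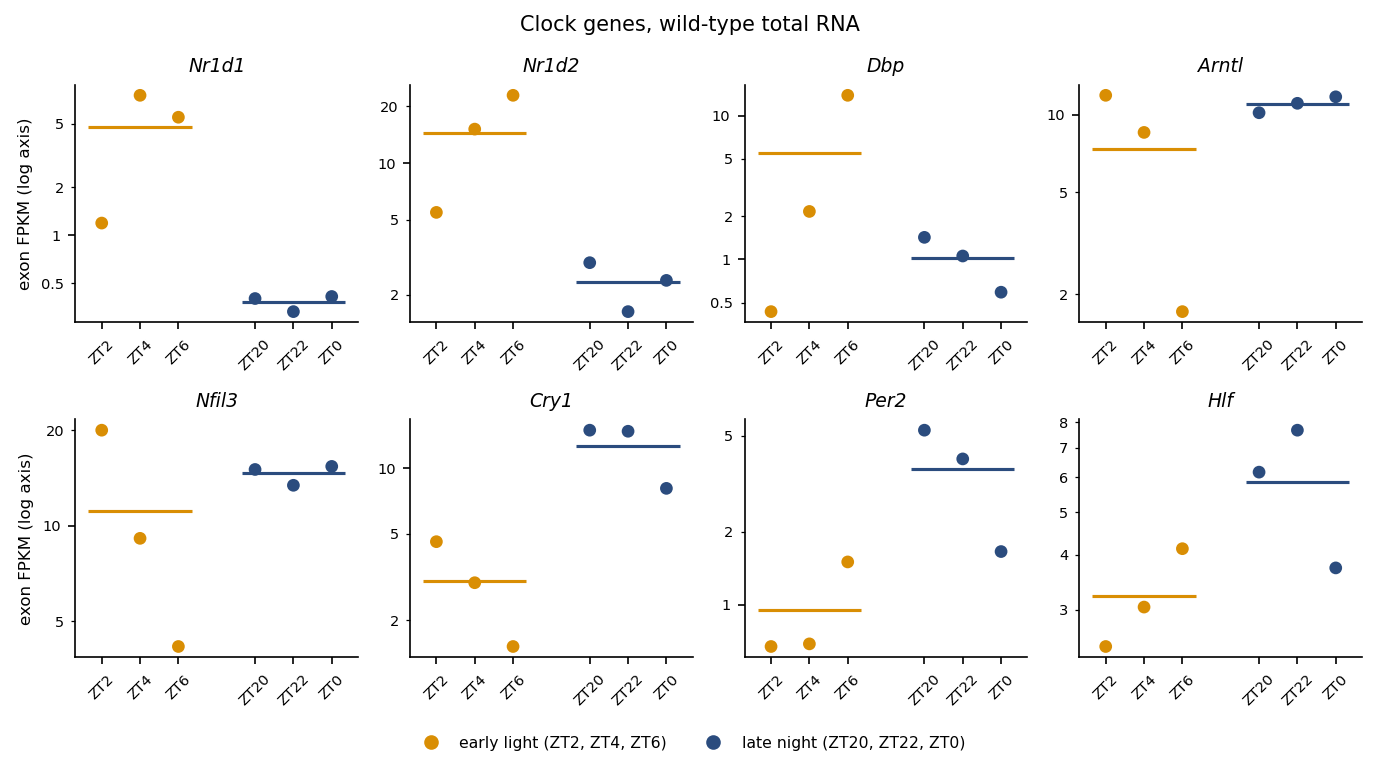
Exon FPKM (log axis) of 8 clock genes in each early light library (left) and each late night library (right) of wild-type total RNA; lines are window means. Nr1d1 and Nr1d2 are higher in all 3 early light libraries, Cry1 and Per2 lower, and Dbp, Arntl and Nfil3 differ widely among the 3 mornings.

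Promoters of 2 clock genes that differed in opposite directions are shown for the motifs that the clock is known to use.
Cry1, chr10:85185005-85185304, minus strand: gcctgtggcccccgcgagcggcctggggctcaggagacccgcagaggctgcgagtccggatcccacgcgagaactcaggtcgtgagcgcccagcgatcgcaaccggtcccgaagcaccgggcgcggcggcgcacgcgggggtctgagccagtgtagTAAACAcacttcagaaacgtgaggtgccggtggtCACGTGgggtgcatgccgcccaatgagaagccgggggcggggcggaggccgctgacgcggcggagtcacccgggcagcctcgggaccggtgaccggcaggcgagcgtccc
Nr1d2, chr14:18239057-18239356, minus strand: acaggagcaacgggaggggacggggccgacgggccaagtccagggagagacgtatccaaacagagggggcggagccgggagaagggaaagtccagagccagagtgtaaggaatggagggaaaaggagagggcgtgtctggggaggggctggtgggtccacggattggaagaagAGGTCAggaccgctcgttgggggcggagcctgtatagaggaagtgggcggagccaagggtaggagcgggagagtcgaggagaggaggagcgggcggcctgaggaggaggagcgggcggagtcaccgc
The Cry1 window held an E-box and a forkhead core, and the Nr1d2 window the RORE half-site AGGTCA, whose flanking bases were not examined. Over 1159 promoter windows of the genes that were higher without overlap, 9.40% held an E-box, against 9.02% of 1097 windows of lower genes and 10.1% of all 10938 windows of genes tested. The RORE half-site was in 13.7% of windows of higher genes, 12.6% of lower and 13.4% of all. The cAMP response element was in 4.06%, 2.55% and 3.04%, the heat shock element in 6.64%, 5.38% and 6.09%, the D-box in 0.259%, 0.729% and 0.594%, and the forkhead core in 9.40%, 8.11% and 9.25% of the windows of higher, lower and all genes. The D-box shares rest on 3 windows of higher and 8 of lower genes. No test was made on these shares.

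Of 20 genes of fatty acid and triglyceride synthesis, 17 had a negative difference and 3 a positive one. Of these 20, 9 were lower without overlap (9.91% of all genes) and 0 higher (10.6%), and 0 passed the main test. By the daily curve 15 were lower, against 14.4% of all genes. The median log2 difference was -0.55, against -0.00 for all genes. Fasn, the fatty acid synthase, had 16.7, 17.2 and 15.6 FPKM in early light, against 144, 96.7 and 27.1 FPKM in late night (-2.11 ± 0.46, adjusted p = 0.158). Srebf1, the transcription factor that insulin induces to drive these genes, had 7.76, 10.1 and 11.2 FPKM in early light, against 44.2, 48.1 and 18.7 FPKM in late night (-1.80 ± 0.32, adjusted p = 0.0912). The morning values of both were tight and the night values were not, with ZT0 lowest in each. Without ZT0 both passed (limma adjusted p = 0.00456 for Fasn and 0.0156 for Srebf1). The acetyl-CoA maker Acly differed by -1.09 ± 0.29, the acyltransferase Gpam by -0.89 ± 0.27 and the desaturase Scd1 by -0.83 ± 0.26. Thrsp, a lipogenic regulator, had 107, 48.1 and 77.2 FPKM in early light and 1011, 264 and 104 FPKM in late night, so its ZT0 lay within the morning range. Lpin1, a phosphatidate phosphatase, had 6.66, 6.21 and 14.8 FPKM in early light and 52.3, 4.33 and 3.93 FPKM in late night, a night window split between ZT20 and the later times.

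The cholesterol synthesis and LDL uptake list had the same median. Of 24 genes, 23 had a negative difference, 6 were lower without overlap (9.91% of all genes) and 0 higher (10.6%). Of these 24, 0 passed and 11 were lower by the curve (14.4% of all genes), with a median of -0.55. Insig1, an endoplasmic reticulum protein that holds back the SREBP factors, had 100.5, 84.4 and 63.1 FPKM in early light, against 137, 123 and 136 FPKM in late night (-0.67 ± 0.31, adjusted p = 0.401). Cyp51 differed by 0.12 ± 0.25 and Msmo1 by -0.00 ± 0.30.

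Of 11 glycolysis genes 0 were higher and 2 lower without overlap, with a median of -0.40. Pklr, the liver pyruvate kinase, had 33.1, 20.3 and 40.4 FPKM in early light and 91.0, 53.9 and 24.1 FPKM in late night, which overlap. Ppp1r3b, the subunit that brings protein phosphatase 1 to glycogen and favours its synthesis, had the smallest p of the listed genes that missed the threshold. It had 53.0, 28.2 and 31.9 FPKM in early light, against 160, 126 and 87.4 FPKM in late night (-1.71 ± 0.27, adjusted p = 0.0636). It passed without ZT2 (adjusted p = 0.0148) and without ZT0 (0.0372). Of the 9 glycogen genes 3 were higher without overlap, among them Ugp2, which makes UDP-glucose, with 126, 110 and 177 FPKM in early light and 89.7, 84.0 and 82.5 FPKM in late night. Of 11 gluconeogenesis and cAMP genes 1 was higher and 1 lower without overlap, close to the shares of all genes (10.6% and 9.91%). The higher one was Nr4a1, a nuclear receptor induced by cAMP, with 0.880, 1.80 and 0.920 FPKM in early light and 0.138, 0.133 and 0.301 FPKM in late night, from 192 and 24 reads. Its difference of 2.14 was 0.86 with a 10 times larger pseudocount. Pck1 and G6pc, the enzymes of glucose output, differed by 0.62 ± 0.38 and 0.68 ± 0.39 and overlapped.

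The insulin and FOXO list had 1 of 12 genes higher and 2 lower without overlap, against 10.6% and 9.91% of all genes. Igfbp1, a secreted binding protein whose gene insulin represses, had 55.5, 31.7 and 25.8 FPKM in early light, against 14.5, 2.16 and 20.54 FPKM in late night (2.04 ± 0.70, adjusted p = 0.295, and a difference of 1.02 without ZT22). Pik3r1, the regulatory subunit of PI3 kinase, was lower by 0.79 ± 0.17 on the log2 scale in the windows without overlap, and Foxo1, which insulin signalling excludes from the nucleus, had 3.63, 3.85 and 3.47 FPKM in early light and 6.82, 6.00 and 4.30 FPKM in late night. Neither passed the main test (adjusted p = 0.154 and 0.272).

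**Figure D3:**
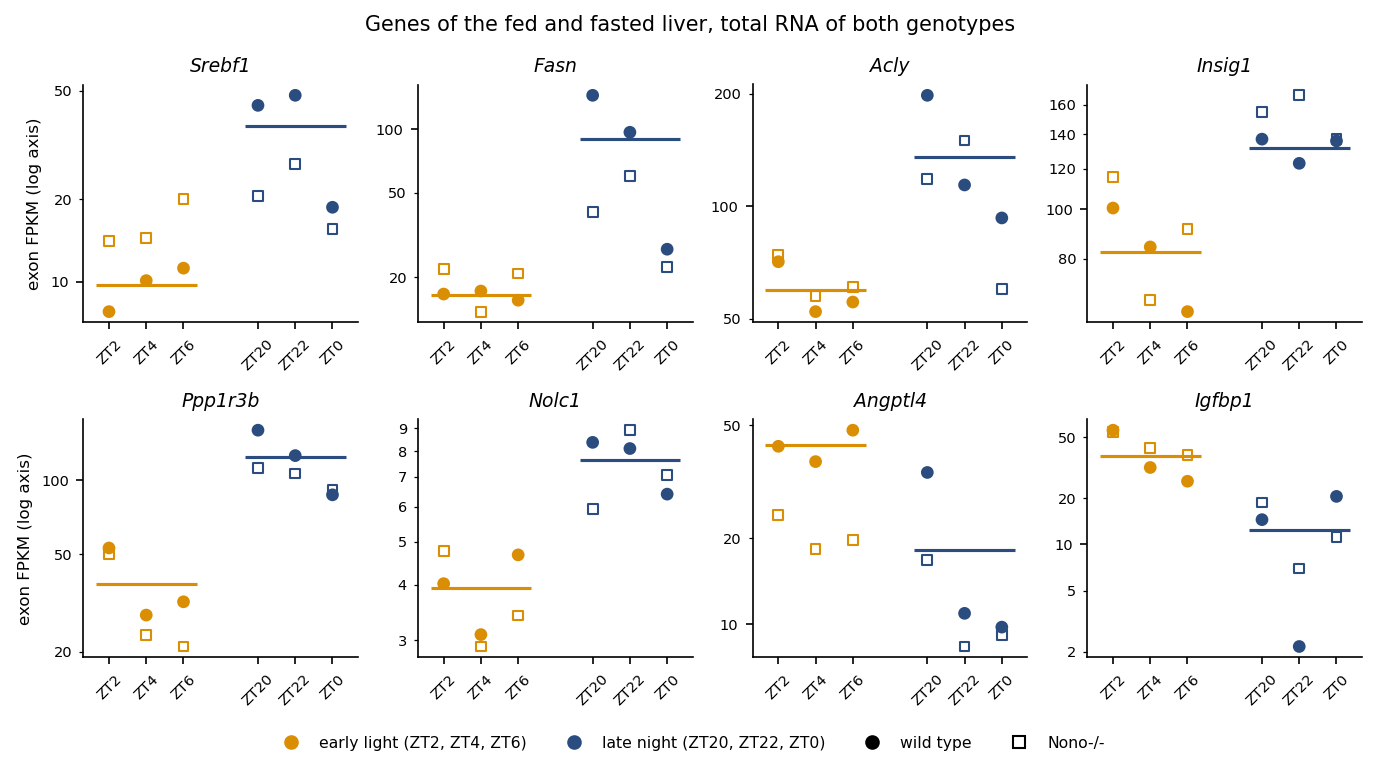
Exon FPKM (log axis) of 8 genes of the fed and fasted liver in early light (left) and late night (right); filled circles are wild-type libraries, open squares Nono-/- libraries, and lines the wild-type window means. Fasn lies between 15.6 and 17.2 FPKM in the 3 wild-type mornings and at 27.1 FPKM already at ZT0. Srebf1 separates the windows in wild type but not in Nono-/-, though its difference between the genotypes did not pass the threshold.

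In messenger RNA of fat oxidation genes, 17 had a positive and 8 a negative difference. Of these 25, 6 were higher without overlap (10.6% of all genes) and 2 lower (9.91% of all genes), 0 passed, and the median was 0.05. Angptl4, a fasting-induced inhibitor of lipoprotein lipase, had 42.1, 37.2 and 48.0 FPKM in early light, against 34.1, 10.9 and 9.76 FPKM in late night (1.47 ± 0.39, adjusted p = 0.228, 0.0311 without ZT20). Cpt1a, the gate for fatty acids into mitochondria, had 50.4, 73.3 and 89.9 FPKM in early light and 51.2, 63.5 and 45.4 FPKM in late night, which overlap. Plin5, a lipid droplet protein, was on the lower side, with 7.89, 7.90 and 7.81 FPKM in early light and 21.1, 17.2 and 8.19 FPKM in late night. The bile acid list had 4 of 13 genes higher and 0 lower, the uptake carrier Slco1b2 (0.74 ± 0.26), the canalicular export pump Abcb11 (0.46 ± 0.21), Cyp7b1 (0.49 ± 0.26) and Hsd3b7 (0.35 ± 0.20). Hsd3b7 separated the windows only after scaling. Cyp7a1, the rate-limiting enzyme of bile acid synthesis, had 14.2, 11.1 and 50.8 FPKM in early light and 44.6, 39.0 and 28.0 FPKM in late night.

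On the autophagy list 4 of 15 genes were higher and 2 lower without overlap, and Gabarapl1 alone passed. In all 7 were positive and 8 negative, with a median of -0.01. Map1lc3b, another ATG8 protein, had 15.04, 17.6 and 24.9 FPKM in early light and 15.5, 14.9 and 13.2 FPKM in late night, separate only after scaling. Atg14, a subunit of the lipid kinase that starts autophagosomes, was higher by 0.48 ± 0.15 (adjusted p = 0.264), and Ddit4, an inhibitor of mTORC1, lower by 1.14 ± 0.35. Ribosome biogenesis genes lay on the lower side, with 7 of 16 lower and 0 higher without overlap, 8 lower by the curve and a median of -0.34. Nolc1, a nucleolar phosphoprotein, had 4.02, 3.09 and 4.67 FPKM in early light, against 8.37, 8.11 and 6.40 FPKM in late night (-0.93 ± 0.16, adjusted p = 0.0698). Rrp12 and the RNA polymerase I subunits Polr1a and Polr1b were lower by 0.98 ± 0.25, 0.55 ± 0.18 and 0.46 ± 0.15. The cytosolic ribosomal proteins had 1 of 20 higher and 1 lower, with a median of -0.15.

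For the remaining lists too, the counts without overlap are to be read against the 10.6% of all genes that were higher and the 9.91% that were lower. The unfolded protein response list had 2 of 19 higher and 1 lower and the highest median of all lists, 0.27. Hspa5, the main chaperone of the endoplasmic reticulum, had 479, 562 and 213 FPKM in early light and 253, 298 and 314 FPKM in late night, so ZT6 was below the night level. Trib3, a pseudokinase induced by stress, was higher by 1.85 ± 0.40 and Xbp1 by 0.59 ± 0.19, and Ddit3, which encodes CHOP, lower by 0.86 ± 0.20. With a 10 times larger pseudocount Trib3 differed by 0.80. None passed (limma adjusted p = 0.158, 0.285 and 0.184). Cdkn1a, the p21 cell cycle inhibitor, had 1.59, 0.415 and 0.155 FPKM in early light, against 9.09, 2.19 and 2.59 FPKM in late night (-2.63 ± 0.77). Saa1, serum amyloid A of the acute phase, had 52.5, 90.7 and 64.8 FPKM in early light, against 719, 110 and 547 FPKM in late night. The windows do not overlap, but ZT22 lay close to the morning, and the difference of -2.35 ± 1.28 did not pass (adjusted p = 0.440). The acute-phase list as a whole had 1 of 15 higher and 2 lower. Heat shock and cold-inducible genes had 0 of 13 on either side and glucocorticoid targets 0 of 10, the glucocorticoid list with a median of -0.58. Mt1, a metallothionein on it, had 3.95, 33.9 and 89.3 FPKM in early light and 3.64, 8.53 and 25.7 FPKM in late night. The lists that follow had 0 to 2 genes on a side, and counts this small were not tested against those shares. Immediate early genes had 1 of 9 higher (Egr1) and 0 lower, amino acid and urea genes 2 of 19 higher (Oat and Agxt) and 2 lower, heme and P450 genes 1 of 12 higher and 0 lower, NAD genes 0 of 9 higher and 1 lower (Nampt), cell cycle genes 0 of 10 higher and 1 lower, and clock output factors 0 of 5 higher and 1 lower.

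**Figure D4:**
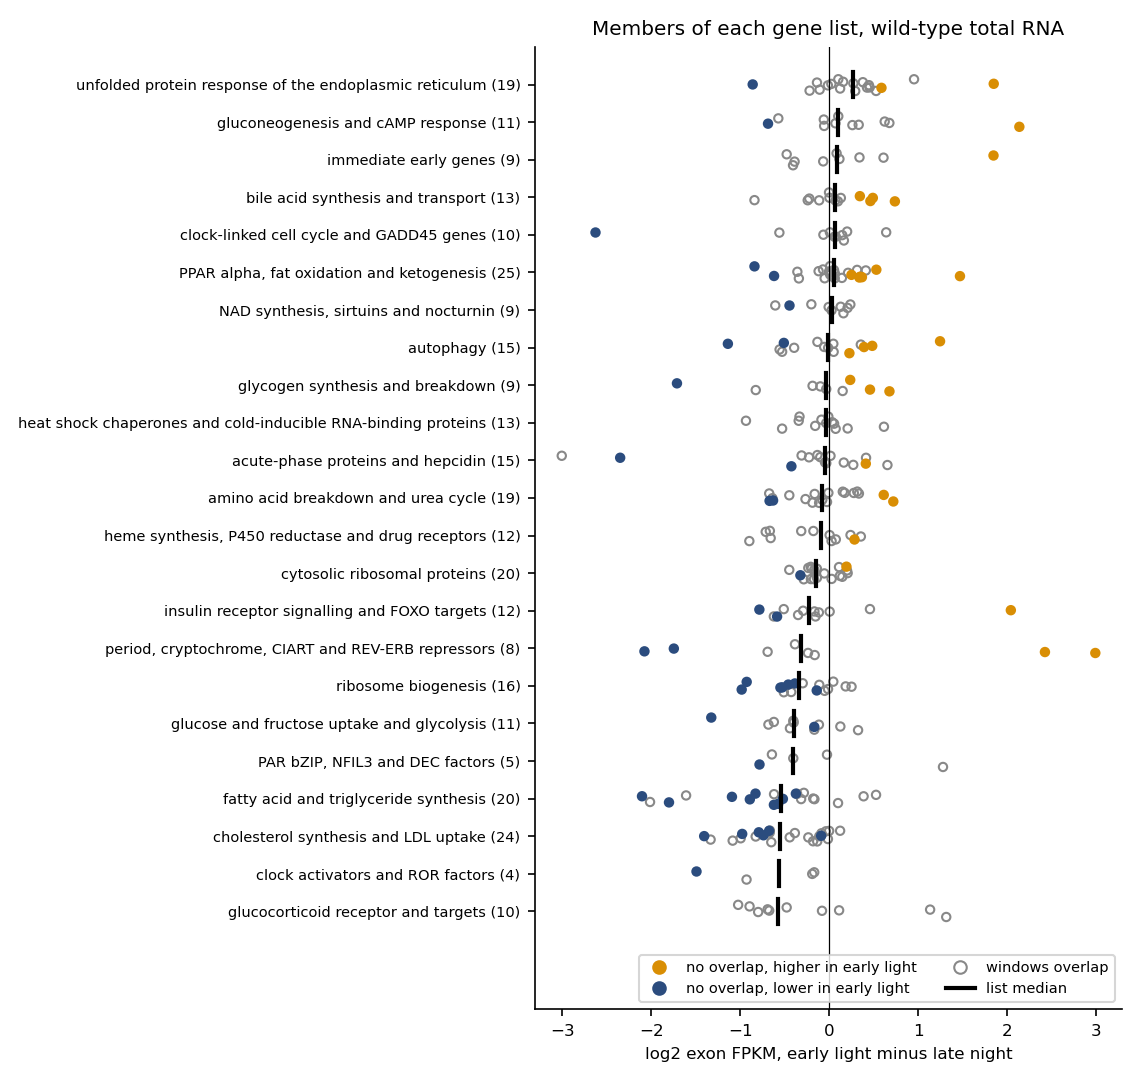
Log2 difference of exon FPKM, early light minus late night, of each tested member of the 23 gene lists (number tested in parentheses), with black bars at list medians; filled points are members whose windows do not overlap, higher (orange) or lower (blue) in early light. The lowest medians are those of glucocorticoid targets (-0.58), clock activators (-0.56) and fatty acid and cholesterol synthesis (-0.55 each), and the 2 rightmost points are Nr1d1 and Nr1d2.

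Since ZT0 lay near the morning for several genes of the fed state, each gene was asked whether its ZT0 value was nearer to the morning mean or to the mean of ZT20 and ZT22. For 65.1% of all 11357 genes it was nearer to the morning. The morning mean was over 3 libraries and the other over 2, and the share that noise alone would give was not determined. The share was 13 of 20 for fatty acid synthesis, 19 of 24 for cholesterol synthesis and 19 of 20 for cytosolic ribosomal proteins, against 3 of 9 for glycogen genes and 7 of 16 for ribosome biogenesis. The share for fatty acid synthesis is thus that of all genes. Without ZT0, 6 genes rose and 6 fell. Only ZT20 and ZT22 of this window bear the word fed in their headers. ZT0 also had 20.2 M reads, next to 20.3 to 22.7 M reads in early light and above 11.8 and 15.3 M reads at ZT20 and ZT22. Its number in the column names stands beside those of the morning. The part of food, depth and numbering was not tested.

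The second question was whether unspliced transcripts differed in the same way, from introns in the same libraries. Of 9635 genes tested 1 rose (0.0104%) and 0 fell (0.00%), with 449 higher and 443 lower at an unadjusted p under 0.05. That gene was Vwa8, which encodes a mitochondrial AAA ATPase. Its introns had 1.05, 1.25 and 1.002 FPKM in early light, against 0.552, 0.459 and 0.526 FPKM in late night (1.02 ± 0.11, limma adjusted p = 0.0124), while its exons had 27.9, 33.6 and 31.5 FPKM in early light and 37.1, 35.8 and 22.3 FPKM in late night. It lost the call without ZT4 (adjusted p = 0.0572) or ZT22 (0.0636), without scaling (0.0511) and with only the 6 libraries of these windows (0.141). With a 10 times larger pseudocount the difference was 0.65. Without overlap 745 genes were higher (7.73%) and 693 lower (7.19%). On the fat oxidation list 9 of 26 genes were higher in introns and 0 lower without overlap, with an intron median of 0.38 and an exon median of 0.05. Cpt1a introns had 1.10, 1.61 and 1.01 FPKM in early light and 0.663, 0.398 and 0.877 FPKM in late night, and those of Ppara, the nuclear receptor that fatty acids activate, 1.496, 2.29 and 1.70 FPKM in early light and 1.22, 0.924 and 1.11 FPKM in late night. Cholesterol genes had 7 of 23 lower and 0 higher in introns. The exon to intron ratio gave 0 of 9079 genes past the threshold (limma; 0.00% in either direction, 870 at an unadjusted p under 0.05). Per2 had the smallest p, with an exon difference of -1.75 and an intron difference of -0.00 (adjusted p = 0.168).

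Introns of nuclear RNA from the same livers, which are deeper in unspliced reads, were set against the exons of total RNA. The nuclear libraries of ZT20 and ZT22 differed in make-up from the others of these windows. Introns took 70.5% and 68.4% of their reads, against 75.4% at ZT0 and 73.03% to 73.64% in early light. In them 9026 and 9616 genes reached 1 FPKM, against 7799 at ZT0 and 7770 to 8348 in early light. The part of this difference in the nuclear results was not tested. Of 10500 genes 1 had a larger difference in exons (0.00952%) and 1 a smaller one (0.00952%). Gstm2, a glutathione transferase, had 0.490, 0.193 and 0.216 FPKM of nuclear intron signal in early light and 1.48, 1.93 and 0.834 FPKM in late night, while its exons differed by 0.08, a gap of 2.12 ± 0.25 (limma adjusted p = 0.0203). Acot3, an acyl-CoA thioesterase from a cluster of closely related genes whose reads may be shared, had nuclear introns differing by 0.73 and exons by -1.09 (gap -1.82 ± 0.24, adjusted p = 0.0289). Both calls were lost without ZT4, ZT20 or ZT22, each leaving 0 calls, and that of Acot3 also without ZT2 (adjusted p = 0.0763), without a filter (0.0566) and with a 10 times larger pseudocount (0.0917), where its gap was -0.82. With only the 6 pairs of these windows Gstm2 lost its call (0.0782), and with the larger pseudocount its gap was 1.27. Without ZT0, which leaves only ZT20 and ZT22 in late night, there were 73 genes with the gap on the exon side and 160 on the other. In nuclear introns 11.4% of the genes were higher and 9.86% lower without overlap. Fat oxidation had 11 of 25 higher and 0 lower there, with a median of 0.66, and autophagy 9 of 15 higher and 0 lower, with a median of 0.48. Ulk1, the kinase that starts autophagy, had 3.74, 6.22 and 4.10 FPKM of nuclear intron signal in early light and 2.37, 1.29 and 1.75 FPKM in late night. All 24 cholesterol genes were negative, 8 without overlap, with a median of -0.71. The unfolded protein response list had a nuclear intron median of -1.21, with 16 of 19 genes negative, and an exon median of 0.27. Its nuclear introns were lower without overlap in 2 of 19 genes and higher in 1, against 9.86% and 11.4% of all genes. Hspa5 introns in nuclei had 6.80, 1.92 and 10.7 FPKM in early light and 9.01, 24.5 and 25.8 FPKM in late night. Per gene, this gap did not pass (Hspa5 adjusted p = 0.173, Pdia6 0.163).

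**Figure D5:**
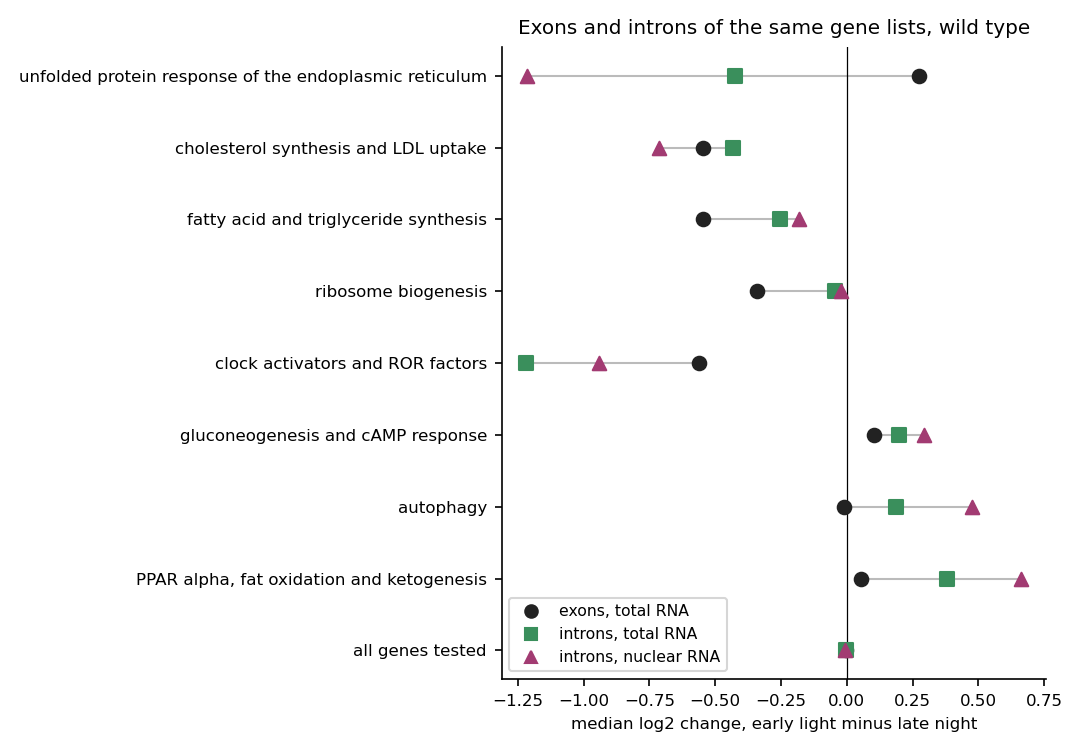
Median log2 difference, early light minus late night, over the members of 8 gene lists and over all genes tested, for exons of total RNA (circles), introns of total RNA (squares) and introns of nuclear RNA (triangles) of wild-type livers. For fat oxidation the medians are 0.05, 0.38 and 0.66 and for the unfolded protein response 0.27, -0.42 and -1.21, while the medians over all genes sit at 0.

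The last question was whether the step differed between wild-type and Nono-/- livers. The difference of the differences passed for 0 of 11340 genes in either direction (limma; 0.00%, smallest adjusted p = 0.900), with 386 genes at an unadjusted p under 0.05. In Nono-/- livers 6.68% of the genes were higher and 8.13% lower without overlap. Of the 2329 genes without overlap in wild type and 1679 in Nono-/-, 487 were on the same side in both and 17 on opposite sides. Gabarapl1 had 101, 113 and 168 FPKM in early light and 55.0, 50.5 and 67.2 FPKM in late night in Nono-/-, and Tcp11l2 had 8.24, 15.3 and 14.3 FPKM in early light and 5.05, 2.80 and 2.52 FPKM in late night. Both thus separated the windows there as well, by 1.06 and 1.80 on the log2 scale. Srebf1 had a wild-type difference of -1.80 and a Nono-/- difference of -0.41, leaving -1.39 ± 0.44 between them (adjusted p = 0.900 in the limma fit across all genes). Nono-/- Srebf1 had 14.0, 14.4 and 20.1 FPKM in early light and 20.6, 26.9 and 15.6 FPKM in late night, which overlap. The interval of that gap ran from -2.30 to -0.47, for this gene alone and not adjusted for the number of genes tested. A p that misses the threshold does not show that the step was alike. Fatty acid synthesis had a median of -0.55 in wild type and -0.32 in Nono-/-, and cholesterol synthesis -0.55 in wild type and -0.38 in Nono-/-.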

How the data were processed

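Total and nuclear RNA of mouse liver were sequenced after a TruSeq Stranded Total RNA preparation with Ribo-Zero Gold, per the labels' protocols. STAR 2.4.0k, FastQC 0.11.2 and mm10 appear among the tools and builds of the submitters' processing notes. Per the file headers, the authors computed FPKM with HOMER over exons and over introns, with isoforms condensed. No strand option is written there, so overlapping genes were treated as inseparable (33 of the 306 listed genes tested overlap a gene on the other strand). Genes with near-identical copies may be split or lost: Gapdh was listed between 0.114 and 0.672 FPKM. All value columns were used. Depth came from the read-sized steps of low FPKM, and no pair of libraries was identical.

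Libraries were scaled by the median, over genes, of their ratio to a geometric mean, and log2(FPKM + 0.1) for exons or log2(FPKM + 0.05) for introns was fitted with limma 3.58.1 in R 4.3.3 (trend on the mean). The 12 wild-type total libraries entered in 4 windows of 3 (8 residual degrees of freedom), with genes kept from a mean exon level of 0.5 FPKM or a mean intron level of 0.1 FPKM upward. Neighbouring times stand in for replicates, so drift within a window counts as spread and the p-values speak only of how these pools vary. Log2 differences understate changes of low genes. On simulated data of 11357 genes, the exon test recovered 65 of 100 changes of 1 on the log2 scale. It recovered 94 of 100 changes of 2, with 7 false calls. These changes were planted together, in early light alone, on flat levels with independent normal noise. The Benjamini-Hochberg threshold loosens as more genes change, so these rates do not carry over to measured libraries with few calls. In the measured libraries, Nr1d1 (2.99), Cry1 (-2.08), Fasn (-2.11) and Cdkn1a (-2.63) missed the threshold, while B930025P03Rik (2.60) and Mir3962 passed. Recovery of genes that drift within a window was not tested. The genotype fit used the total libraries of both genotypes, and the exon to intron and exon to nuclear intron gaps were taken within a library or liver. Single sums were tested with exact permutation tests (scipy).

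The part, the 23 lists (322 genes, 306 tested) and the tests were chosen with earlier results of these data known. Exon genes were named if among the 15 largest changes each way past the threshold with at least 2 FPKM in the higher window and no overlap (0.3 FPKM and 8 each way for introns, 6 each way for the ratio, 4 each way against nuclear introns, 8 for genotype), or if on a list, and the genes followed through the alternatives were picked after their values were seen. Some genes are not reported here.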

Additional observations from a re-analysis of the deposited data

Results flagged for a closer look

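Nup43, a nucleoporin gene on none of the lists, was looked at because its genotype difference had the smallest p. It was flagged because all 3 early light libraries were above the late night ones in wild type and below them in Nono-/-. It is 1 of 17 genes on opposite sides, and the others were not searched unless listed or called. It had 3.05, 2.54 and 3.16 FPKM in early light and 2.19, 1.99 and 2.13 FPKM in late night in wild type, and 2.60, 2.79 and 3.001 FPKM in early light and 3.22, 3.65 and 3.22 FPKM in late night in Nono-/-. The difference between the genotypes was 0.78 ± 0.19 on the log2 scale (adjusted p = 0.900 in the limma fit across all genes), the smallest p of 11340 genes.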

How the results depend on the processing

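The exon count of 5 calls became 2 with a 10 times larger pseudocount, 0 with a filter 4 times stricter, 2 without a filter, 1 with hours within the window as a covariate, 2 with the intron share as a covariate and 18 (13 higher, 5 lower) with both genotypes in the fit. With only the 6 early light and late night libraries it stayed at 5 (4 higher, 1 lower), but Gabarapl1, Tcp11l2, Maff and B930025P03Rik were not among them. The daily curve, chosen after seeing the data, gave 3121. Leaving out 1 library gave 1 to 13 calls: 13 without ZT2, 12 without ZT0, 4 without ZT20 and 1 without ZT4, ZT6 or ZT22. For introns, 1 call became 3 with the stricter filter, 2 without a filter, 12 with both genotypes, 785 with the daily curve and 0 to 10 with 1 library left out (10 without ZT2, 5 without ZT0, 2 without ZT6, 0 without ZT4). Without scaling and with only the window libraries it stayed at 1, but Vwa8 missed the threshold. The ratio had 0 calls, and 0 to 1 with 1 library left out. Total exons against nuclear introns had 2 calls, 1 with the larger pseudocount, 1 with the stricter filter, 4 with only the early light and late night libraries, and 0 to 233 with 1 library left out (233 without ZT0, 17 without ZT6). The genotype difference had 0 calls with the time point as a replicate block, which pairs libraries by time and not by animal, and 0 to 2 with 1 library left out (2 without ZT0 of Nono-/-). The 2329 genes without overlap became 2186 without scaling, 1779 with the stricter filter and 2922 without a filter. Of the named genes followed, Hspa5 alone changed sign, at -0.31 by the daily curve against 0.45. With the larger pseudocount the differences of Nr1d1 (1.83), Per2 (-1.16), Cdkn1a (-1.55), Rrp12 (-0.60) and Ddit4 (-0.75) also shrank by over 1.5 times, and without ZT6 those of Arntl and Dbp were -0.06 and 0.09. The causes were not tested. With 1 pool per time point and 11.8 to 22.7 M reads, genes near the filter rest on few reads.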
